A study of Mus musculus with 6 samples.

Results

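The genes described here are 9 genes of polyamine metabolism in mouse cells, Odc1, Amd1, Srm, Sms, Sat1, Smox, Oaz1, Oaz2 and Azin1. They were chosen by name, with earlier results of these data known. All 9 were found among the 33006 genes of the count tables and passed the filter on low counts, which left 12924 genes for the test. The cells were primary endothelial cells of the mouse lung, of strain C57BL/6, grown in EBM-2 medium with an endothelial supplement pack. At 80% confluence they received 300 uM hydrogen peroxide (H2O2), an oxidant, or water, and RNA was taken after 6 hours. There were 3 libraries with H2O2 and 3 control libraries, numbered 1 to 3 in each group, and the labels give neither the age of the animals nor whether the libraries came from separate cultures or animals. P-values are therefore set against library-to-library spread alone, and that spread could be purely technical. The sequencing reads mRNA, so enzyme activity, protein and polyamine levels were not measured.

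Polyamines (putrescine, spermidine and spermine) are small, positively charged amines that bind nucleic acids and that growing cells, the endothelium included, need. Ornithine decarboxylase (Odc1) makes putrescine from ornithine, Amd1 makes the aminopropyl donor from S-adenosylmethionine, and Srm and Sms use that donor to build spermidine and then spermine. Antizymes (Oaz1, Oaz2) bind ornithine decarboxylase and deliver it to the proteasome, and antizyme inhibitor (Azin1), a relative of ornithine decarboxylase without its activity, ties up the antizymes. Sat1 acetylates spermidine and spermine for export or breakdown, and Smox oxidises spermine and releases H2O2 as a by-product.

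Full-length antizyme is made only when ribosomes shift frame by a single base at a stop codon inside the message, a step that polyamines favour. That site is shown because the transcript that changed most among the 9 carries it and its close relative does too. Both stretches of 30 bases lie on the + strand and were read from GENCODE M21 transcripts of the retained-intron class (GRCm38, the assembly of mm10), 5′ to 3′, with the last codon of the first frame and the stop codon in capitals. They cover chr10:80828281-80828310 in Oaz1 and chr9:65686258-65686287 in Oaz2.
Oaz1: ctcggtggtgcTCCTGAtgtccctcaccca
Oaz2: ctctgtggtgcTCCTGAtgcccctcaccca
Counted along the annotated coding sequence of a coding transcript of each gene, the first frame holds 68 codons before this stop in Oaz1 and 32 in Oaz2, and the stretches share 28 of 30 bases. They were found by the letters TCCTGATG on the transcript strand, which 11% of 21877 protein-coding genes hold somewhere in their longest coding transcript, so the letters alone do not mark a frameshift. The count tables give no reading of frameshifting.

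The labelled cell type was checked on its markers. All 8 endothelial markers were present, with a summed level of 3843 to 3973 CPM in controls and 4088 to 4121 CPM with H2O2. Of the 8, 3 were called higher by edgeR (37.5%, against 9.70% of all genes tested). With 8 genes that share is only a description. Lung epithelial markers summed to 0.193 CPM or less, with Sftpc, Scgb1a1 and Krt8 at 0 reads in every library, and 6 fibroblast and mural markers to 8.65 to 10.6 CPM in controls and 7.70 to 9.68 CPM with H2O2. Among leukocyte markers, Adgre1 and Cd3e were at 0 reads in every library and nearly all of the sum, 157 to 163 CPM in controls and 162 to 169 CPM with H2O2, came from Cd68. The part of the higher endothelial marker sum in the polyamine results was not tested. Gene counts were 22455388 to 25626849 per control library and 26042296 to 27618679 per H2O2 library. Every H2O2 library was thus deeper than every control, and the part of depth in the results was not tested. No pair of replicates was as close as sampling noise alone would leave it (chi-square per degree of freedom at least 1.62), and H2O2 replicate 3 stood furthest from its group (8.61 and 10.96). Without that library the log2 fold changes described next were 0.34 for Oaz1, -0.14 for Odc1 and -0.10 for Azin1, all called by edgeR.

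With H2O2, Oaz1 rose 1.26-fold, Odc1 fell by 8.57% and Azin1 fell by 6.65%, and the other 6 genes did not pass the test. Of the 9 genes, 1 rose and 2 fell at an adjusted p under 0.05 (edgeR's quasi-likelihood test, Benjamini-Hochberg adjustment over all genes tested). Those 3 are 33.3% of the genes, against 20.5% of all genes tested, 9.70% higher and 10.8% lower. The median log2 fold change of the 9 was -0.040, and that of all genes tested was -0.0041. The libraries of the groups did not overlap for 4 of the 9 (Oaz1, Odc1, Azin1 and Sat1), where 34.6% of all genes tested were separated in this way. With 9 genes these shares are a description and set the pathway apart from no other. In bulk RNA, a lower level can mean fewer cells that make a transcript or less transcript in each, and these cannot be told apart.

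**Figure D1:**
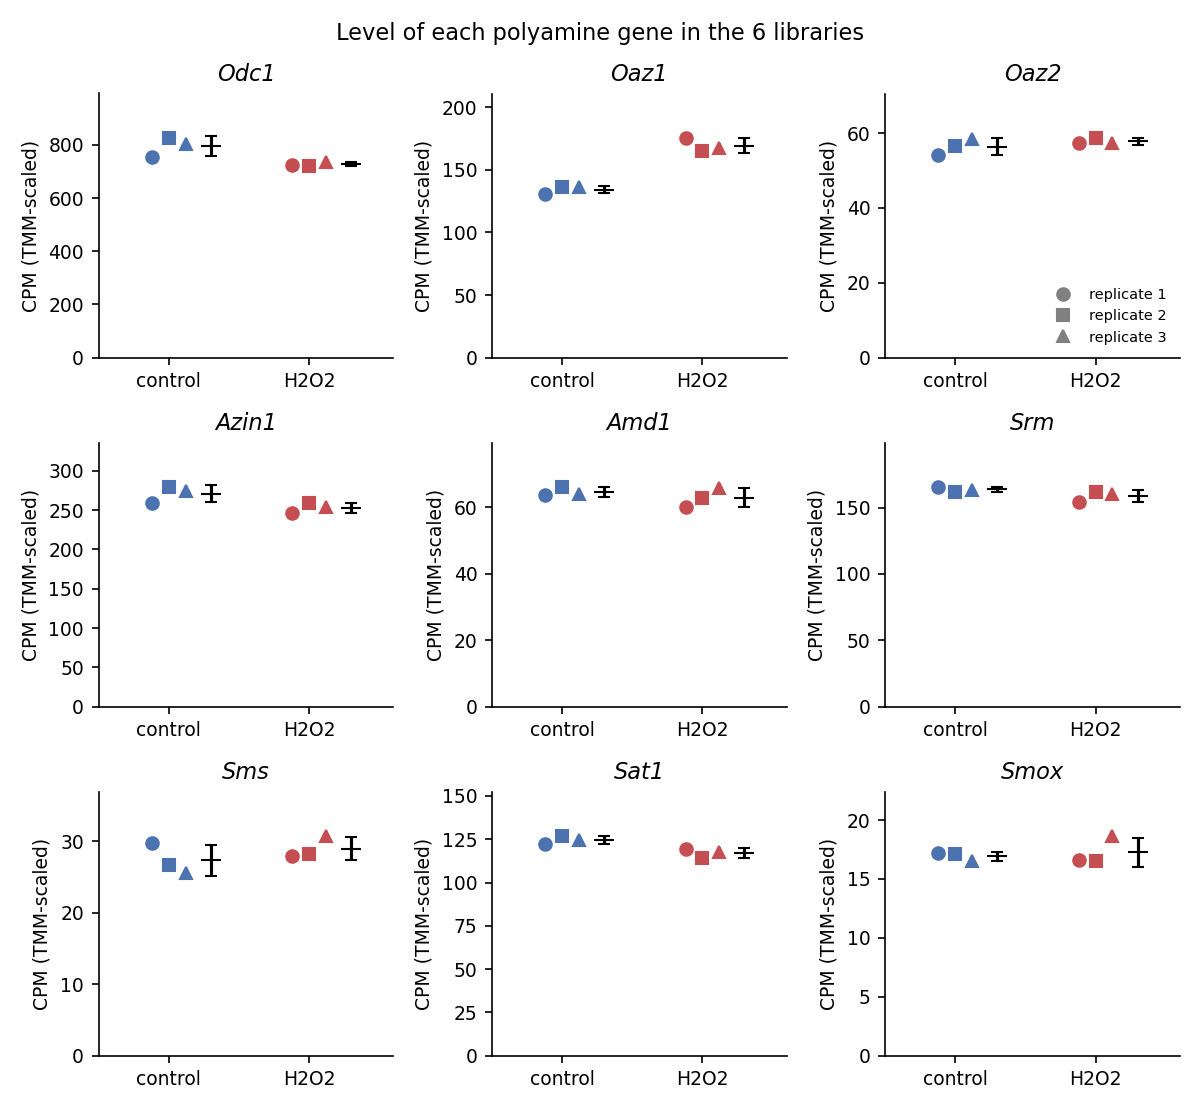
Normalised read counts (CPM with TMM scaling, linear axes from 0) of the 9 polyamine genes in each library, control in blue and H2O2 in red, with marker shapes for the replicate number and black bars for the mean ± SD (n = 3). All 3 H2O2 libraries lie above the controls for Oaz1 and below them for Odc1, Azin1 and Sat1, and the groups overlap in the other 5 panels.

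Oaz1, which encodes antizyme 1, showed the clearest difference. Its normalised read count (CPM, counts scaled to library size with TMM factors) was 131, 136 and 136 in control replicates 1 to 3 and 176, 165 and 167 with H2O2. Every H2O2 library was thus above every control, and the lowest of them exceeded the highest control by far more than either group's spread. The mean went from 134 ± 3.15 to 169 ± 5.64 CPM (SD, n = 3 each), a log2 fold change of 0.34 (SE 0.0336, adjusted p = 3.0e-08 in edgeR's test), or 1.26-fold. By p-value this was rank 97 of the 12924 genes tested. Oaz1 lies on chromosome 10 at 80826656 to 80829290 (GRCm38), and 3039 to 4586 reads per library were behind its values.

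Transcript length moved with this result. The Oaz1 message is short, 1071 bases for its longest coding transcript, and short transcripts tended toward higher values in the H2O2 libraries. Among the 1224 tested genes of the shortest decile (up to 1237 bases) the median log2 fold change was 0.10 and 24.4% were called higher, while in the longest decile (from 6628 bases) these were -0.0043 and 7.76%. The trend over length and GC content, taken at the length and GC content of Oaz1, was 0.092 on the log2 scale. With that trend removed from each library (the length and GC adjustment), Oaz1 stood at 0.24 (SE 0.0320, edgeR adjusted p = 5.8e-07), so the call held and the value was lower. GENCODE also annotates a processed pseudogene, Oaz1-ps, which has no row in the count tables, so reads that match both places make the Oaz1 count uncertain.

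The second antizyme gene, Oaz2, did not pass. Its level was 54.1, 56.6 and 58.5 CPM in the control libraries and 57.3, 58.8 and 57.3 CPM in the H2O2 libraries, and the groups overlapped. The log2 fold change was 0.037 with a 95% confidence interval of -0.048 to 0.12 (intervals here are from the edgeR fit, not adjusted for the number of genes). That interval lies wholly below the one of Oaz1, 0.27 to 0.40, but the difference between the genes was not tested. Per length of message (longest coding transcript), Oaz1 was 4.10 ± 0.0797 times as abundant as Oaz2 in controls and 5.04 ± 0.226 times with H2O2 (SD, n = 3 each). The groups did not overlap in this ratio. It is not adjusted for the length and GC trend, which was 0.092 for Oaz1 and 0.0067 for Oaz2. Another antizyme gene, Oaz3, had 0 or 1 read per library and was not tested.

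Odc1, the enzyme at the entrance of the pathway, was the most abundant of the 9 and fell slightly. It stood at 755, 828 and 804 CPM in the control libraries and at 724, 721 and 736 CPM in the H2O2 libraries. The groups did not overlap, although control replicate 1 lay closer to the H2O2 libraries than to the other controls. The fitted change was -0.13 on the log2 scale (SE 0.0300, edgeR adjusted p = 0.0025), so that Odc1 fell by 8.57%. Leaving out control replicate 2, the highest control, gave -0.10 (edgeR adjusted p = 0.043), and leaving out control replicate 1 gave -0.16. Odc1 lies on chromosome 12 at 17544794 to 17551505, and its mean level was at the 99.0th percentile of the genes tested, with 17935 to 21069 reads per library.

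Azin1, the antizyme inhibitor, fell by a similar small amount but less firmly. Its values were 258.6, 279.9 and 274 CPM in the control libraries and 246, 258.5 and 253 CPM in the H2O2 libraries. The highest H2O2 library (258.5) and the lowest control (258.6) were thus nearly tied. The log2 fold change was -0.099 (SE 0.0321, edgeR adjusted p = 0.028), so that Azin1 fell by 6.65%. The call ended without control replicate 2 (-0.074, edgeR adjusted p = 0.19), without control replicate 3 (-0.091, 0.12), without H2O2 replicate 1 (-0.079, 0.15) and with upper-quartile scaling factors (-0.087, 0.0502). Azin1 lies on chromosome 15 at 38487427 to 38519266, and exons of Gm49077 on the opposite strand cover 5.7% of its exon bases. Without a stated strand setting, reads from such shared bases cannot be told apart.

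Ratios of counts within a library need no scaling factor between libraries, and they set these 3 transcripts side by side. Odc1 counts divided by Oaz1 counts, each per length, gave 2.80, 2.95 and 2.86 in controls and 2.00, 2.12 and 2.13 with H2O2. The ratio was lower in all 3 H2O2 libraries and its mean dropped by 27.5%. Azin1 over Oaz1, per length, was 0.435, 0.453 and 0.442 in controls and 0.308, 0.344 and 0.333 with H2O2. Odc1 over Azin1, in counts, was 2.92, 2.96 and 2.94 in controls and 2.94, 2.79 and 2.91 with H2O2, and here the groups overlapped. Dividing by length does not remove the length and GC trend from these ratios. That trend was 0.092 for Oaz1, -0.011 for Odc1 and 0.023 for Azin1 on the log2 scale. After the length and GC adjustment the log2 fold changes were 0.24 for Oaz1, -0.12 for Odc1 and -0.12 for Azin1. These ratios were chosen after the values were seen, rest on the libraries already tested and carry no test of their own.

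**Figure D2:**
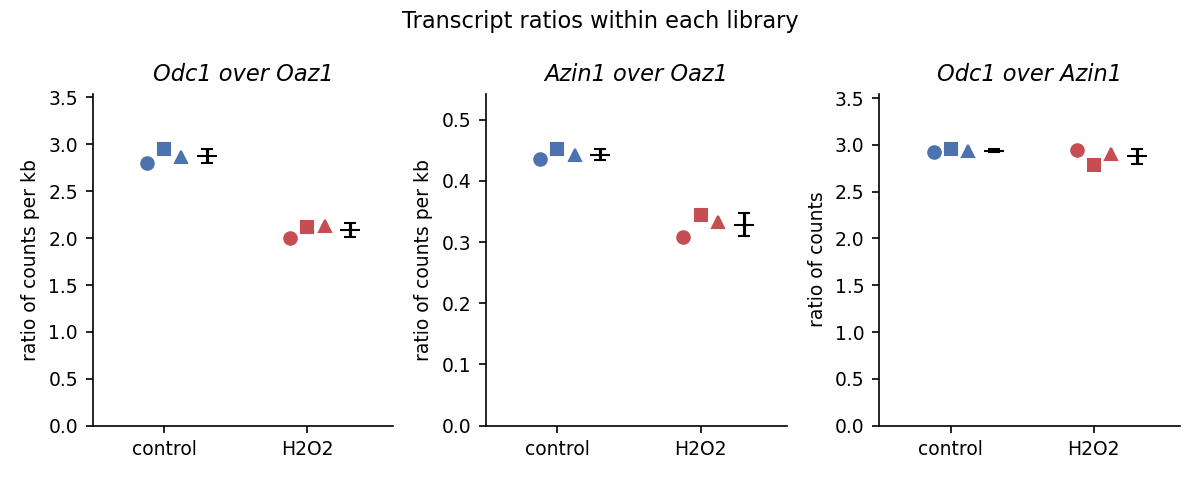
Ratios of read counts within each library, per length of message for Odc1 over Oaz1 and Azin1 over Oaz1 and of plain counts for Odc1 over Azin1, on linear axes from 0, with control in blue, H2O2 in red and black bars for the mean ± SD (n = 3). Both ratios to Oaz1 are lower in every H2O2 library (Odc1 over Oaz1 at 2.00 to 2.13 against 2.80 to 2.95), and Odc1 over Azin1 overlaps between the groups. The ratios are not adjusted for the length and GC trend.

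The genes that supply the donor and build the longer polyamines, Amd1, Srm and Sms, did not pass the test. For Amd1, S-adenosylmethionine decarboxylase, control libraries gave 63.5, 66.2 and 63.9 CPM and H2O2 libraries 59.9, 62.6 and 65.7 CPM, a log2 fold change of -0.040 (95% interval -0.13 to 0.045). For Srm, spermidine synthase, the controls gave 166, 162 and 163 CPM and the H2O2 libraries 154, 162 and 160.3 CPM, a change of -0.044 (-0.11 to 0.021). For Sms, spermine synthase, they gave 29.8, 26.6 and 25.6 CPM against 27.96, 28.2 and 30.8 CPM, a change of 0.083 (-0.041 to 0.21). In all 3 genes the groups overlapped, and these intervals do not show that the levels were equal. The Srm message is short too, 1338 bases with 59.8% GC, and the trend over length and GC content at Srm was 0.088. After the length and GC adjustment Srm was called lower, at -0.13 (edgeR adjusted p = 0.0024). A single-exon copy of Amd1, Amd2, had 10 to 16 reads per library, and reads shared between such copies are uncertain.

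Neither catabolic gene passed the test. Sat1, the acetyltransferase, stood at 122, 127 and 125 CPM in the control libraries and 119, 114 and 118 CPM in the H2O2 libraries. The groups did not overlap, yet the log2 fold change of -0.090 (95% interval -0.16 to -0.020) did not pass the adjusted threshold (edgeR adjusted p = 0.061). The Sat1 message has 1162 bases and 44.3% GC, and the trend at Sat1 was 0.040. After the length and GC adjustment Sat1 was called lower at -0.13 (edgeR adjusted p = 0.0033). Smox, spermine oxidase, was the least abundant in plain counts at 17.2, 17.1 and 16.5 CPM in the control libraries and 16.6, 16.5 and 18.7 CPM in the H2O2 libraries. Its change of 0.027 (-0.12 to 0.17) rested on H2O2 replicate 3, without which it was -0.035.

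Compared per length of message (CPM per kilobase of the longest coding transcript), the 9 levels spanned a wide range and kept nearly the same order in both groups. The order among the genes turns on the length used. All annotated exons of Oaz1 together hold 2558 bases, against 1071 in its longest coding transcript. For Sat1 these were 2774 and 1162, and for Srm 1599 and 1338. In controls Odc1 led with 360.3 ± 16.7 CPM per kilobase, followed by Oaz1 (125 ± 2.94), Srm (122 ± 1.47), Sat1 (107 ± 2.13), Azin1 (55.6 ± 2.25), Oaz2 (30.6 ± 1.19), Amd1 (20.1 ± 0.443), Smox (7.37 ± 0.169) and Sms (7.35 ± 0.588; SD, n = 3). The libraries of Oaz1 and Srm overlapped there, as did those of Smox and Sms, and every other neighbour in the order was separated. With H2O2, Oaz1 (158 ± 5.26) was separated from Srm (119 ± 3.18), and Sms and Smox still overlapped. Summed over the 9 genes, CPM ran from 1597 to 1699 in controls and from 1582 to 1608 with H2O2, and Odc1 took 48.1% ± 0.725 and 45.7% ± 0.208 of the 9 genes' counts.

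The promoters of Odc1 and Oaz1 are shown because these genes moved in opposite directions by the test. They are RefSeq windows (GRCm38.p6, + strand, 5′ to 3′) from 250 bases before to 50 after the annotated start, chr12:17544623-17544922 for Odc1 and chr10:80826406-80826705 for Oaz1, with capitals for matches to any of the letters searched on both strands, the E-box CACGTG, the GC box GGGCGG and the TATA box TATAAA.
Odc1: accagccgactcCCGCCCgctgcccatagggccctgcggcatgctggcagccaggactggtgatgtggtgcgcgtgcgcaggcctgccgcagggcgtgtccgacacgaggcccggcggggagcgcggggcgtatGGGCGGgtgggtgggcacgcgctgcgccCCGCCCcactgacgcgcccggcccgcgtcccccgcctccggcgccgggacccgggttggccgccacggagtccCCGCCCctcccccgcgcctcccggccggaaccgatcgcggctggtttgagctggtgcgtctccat
Oaz1: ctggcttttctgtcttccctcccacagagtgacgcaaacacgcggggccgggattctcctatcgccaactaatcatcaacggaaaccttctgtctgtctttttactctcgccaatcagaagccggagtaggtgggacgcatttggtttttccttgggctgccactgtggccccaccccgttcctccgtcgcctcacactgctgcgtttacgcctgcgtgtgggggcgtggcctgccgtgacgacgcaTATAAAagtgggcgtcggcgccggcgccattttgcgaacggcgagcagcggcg
The Odc1 window held 4 GC boxes and neither other motif, and the Oaz1 window held 1 TATA box, beginning 3 bases before the annotated start, and neither other motif, so no matches of different motifs overlapped. Among all 32851 windows of 300 bases, 35.7% held a GC box, 13.6% a TATA box and 7.15% the E-box letters. RefSeq windows were matched for 7 of the 9 genes (8 windows, since Sms has more than 1), and 1 Sms window was the only one of the 8 with the E-box letters. Srm and Azin1 had no matched window. A match is a run of letters and not a tested site. GENCODE starts the Odc1 gene at 17544794, inside this window but not at its RefSeq start. Sequence outside the windows was not searched, so they do not show that a gene lacks a motif.

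The wider pathway was read from 5 lists of neighbouring genes, in which 27 genes were tested. By edgeR, 1 rose and 3 fell (14.8%, against 20.5% of all genes). In the supply of precursors, 1 of 4 tested genes fell and 0 rose. That gene was Oat, ornithine aminotransferase, which links ornithine to glutamate and proline, at 80.7, 86.8 and 87.1 CPM in the control libraries and 71.1, 69.7 and 73.9 CPM in the H2O2 libraries, with no overlap. Its log2 fold change was -0.25 (SE 0.0399, edgeR adjusted p = 5.4e-05). The arginase that makes ornithine in the liver, Arg1, had 2 to 17 reads per library. Its log2 fold change was 1.01 (95% interval 0.074 to 1.96), and it was not called by edgeR (adjusted p = 0.12). Arg2 and Agmat, with at most 3 reads and 1 read per library, were not tested. In this list DESeq2 called 1 gene and limma-voom called 2.

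Spermidine also serves to build hypusine, a modified lysine found in the translation factor eIF5A. Of 4 tested genes of that pathway, 1 rose and 0 fell: Eif5a stood at 869, 884 and 883 CPM in the control libraries and 973, 946 and 960.4 CPM in the H2O2 libraries. Its libraries did not overlap, and the log2 fold change was 0.13 (SE 0.0263, edgeR adjusted p = 8.1e-04), or 0.079 after the length and GC adjustment (edgeR adjusted p = 0.024). The hypusine enzymes Dhps (0.11, SE 0.0625) and Dohh (-0.023, SE 0.0465) did not pass. Eif5a counts over Odc1 counts were 1.151, 1.068 and 1.098 in controls and 1.34, 1.31 and 1.30 with H2O2, without the length and GC adjustment.

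The salvage of methylthioadenosine, the by-product of the spermidine and spermine synthases, had 0 of 5 genes called by edgeR, by DESeq2 and by limma-voom, with 1 gene (Mri1, 0.17, named after its value was seen) at an unadjusted p under 0.05. Mtap, the first enzyme of the route and its most abundant, averaged 105 ± 2.53 CPM in the control libraries and 104 ± 2.90 CPM in the H2O2 libraries (SD, n = 3 each). Among 7 other tested enzymes, regulators and transporters, 1 fell and 0 rose. This was Atp13a2, a lysosomal exporter of polyamines, with 45.5, 45.3 and 47.0 CPM in the control libraries and 41.4, 42.4 and 41.3 CPM in the H2O2 libraries and a log2 fold change of -0.14 (SE 0.0437, edgeR adjusted p = 0.024). Its call was lost by DESeq2's test (adjusted p = 0.079) and, in edgeR's test, when control replicate 2 (0.051), control replicate 3 (0.10), H2O2 replicate 1 (0.082) or H2O2 replicate 3 (0.058) was left out. Its relative Atp13a3 stood at 159.5 ± 1.94 and 159 ± 6.43 CPM.

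In the MYC and MAX network, whose MYC protein is a known activator of the Odc1 gene, 1 of 7 tested genes fell and 0 rose. Myc stood at 77.8, 77.2 and 78.0 CPM in the control libraries and 60.8, 62.5 and 65.4 CPM in the H2O2 libraries, with every H2O2 library below every control. The log2 fold change was -0.30 (SE 0.0389, edgeR adjusted p = 1.8e-06). Max, the partner of MYC, did not pass (-0.024, SE 0.0371). Whether the change of Odc1 depends on that of Myc was not tested.

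**Figure D3:**
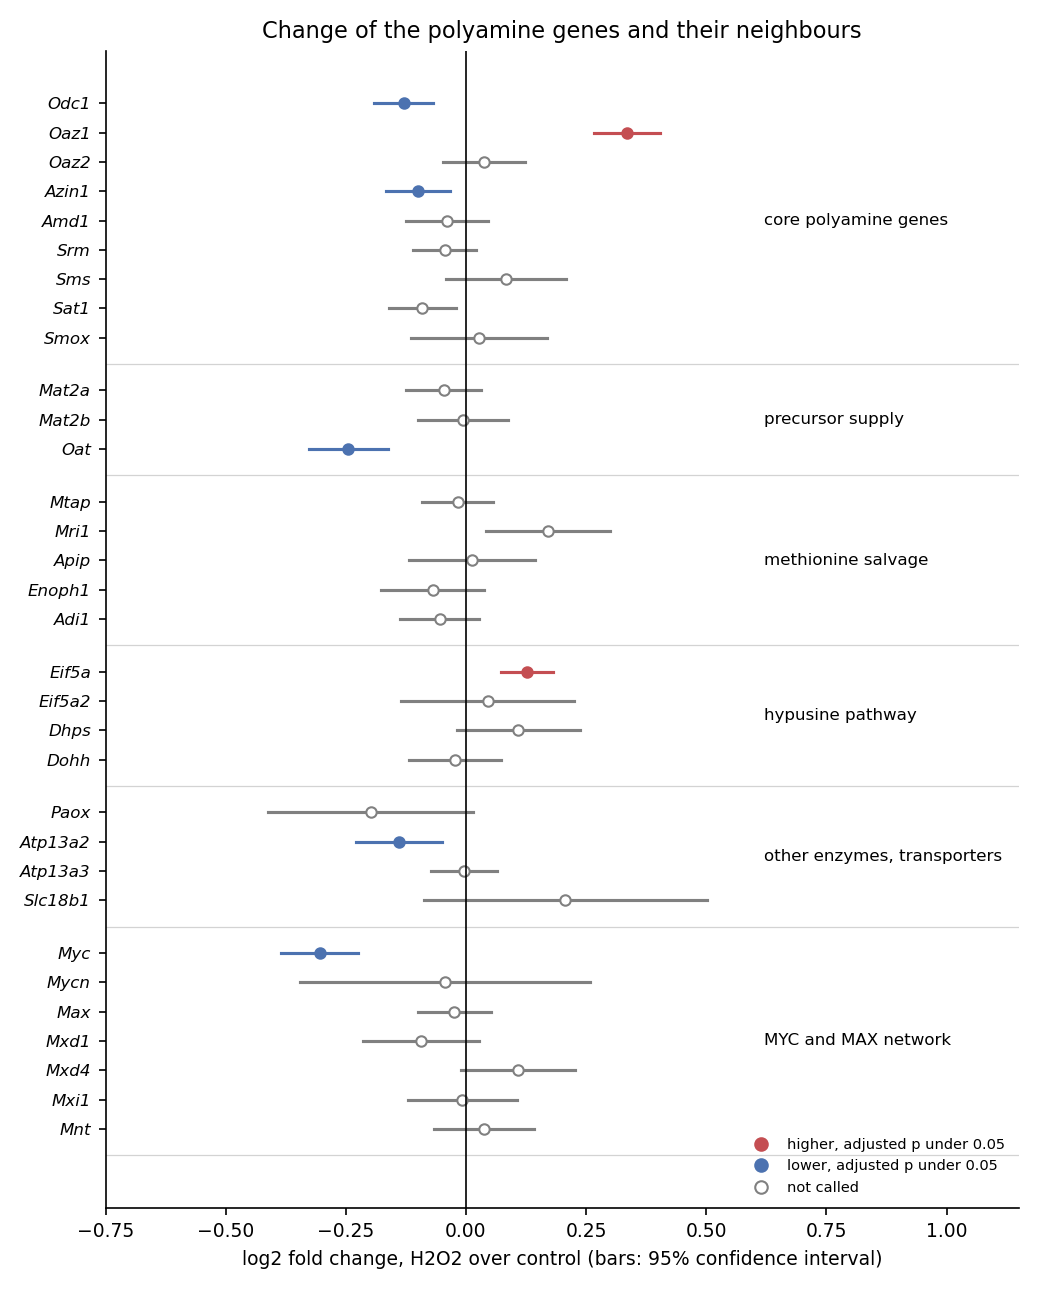
Log2 fold change of H2O2 over control with its 95% confidence interval (not adjusted for the number of genes) for the 9 polyamine genes and the neighbouring genes, grouped by role (genes whose mean log2 CPM is below 1 are left out). Oaz1 (0.34) and Eif5a (0.13) are called higher in red, Odc1, Azin1, Oat, Atp13a2 and Myc are called lower in blue, and open points were not called.

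The genes most like the leading members were taken by Pearson's r of log2 CPM over the 6 libraries among 8071 genes whose mean log2 CPM reached 4. For Oaz1 they were Ly6c1 (r = 0.998), Eif5a (0.9978) and the ribosomal protein gene Rps14 (0.9975), and 366 genes had r above 0.95. For Odc1 they were Serp1 (0.9969), Mndal (0.9958) and Rapgef2 (0.9884), and 109 genes had r above 0.95. The 6 libraries form 2 groups, so r over them carries the group difference, and it is given as a description. These r values are also not adjusted for the length and GC trend, which was 0.092 for Oaz1 and 0.048 for Eif5a. The part of that trend in them was not tested.

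**Figure D4:**
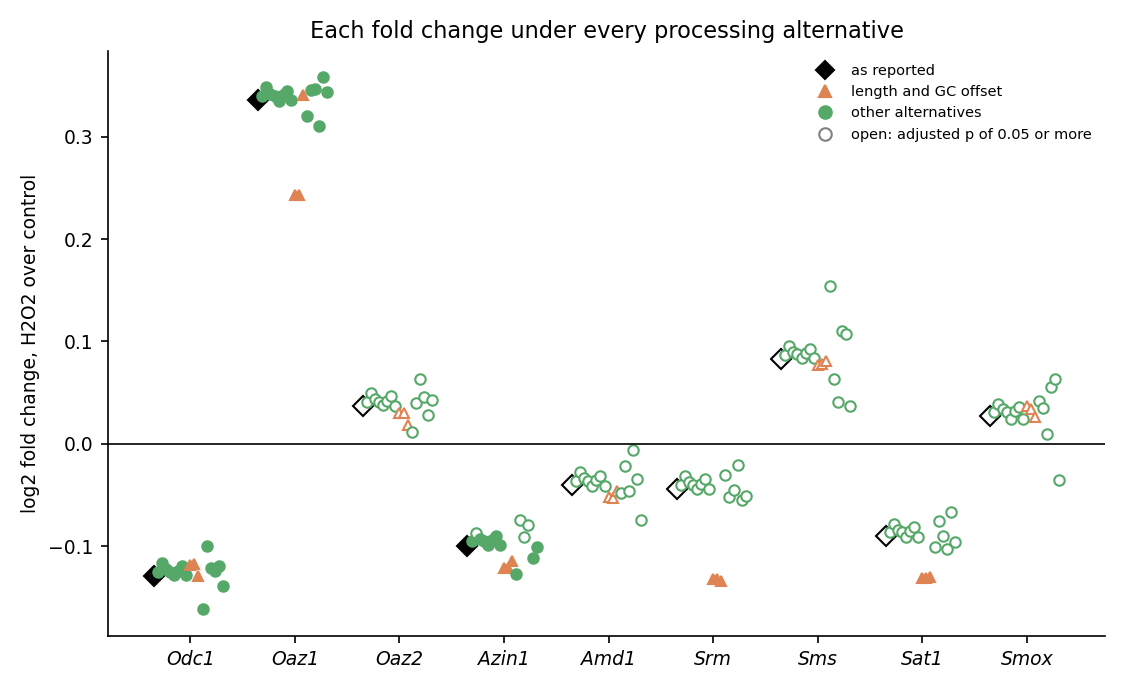
Log2 fold change of each of the 9 genes as reported (black diamonds), in the 3 fits with a length and GC adjustment (orange triangles) and under the other alternatives (green circles), filled where the adjusted p was under 0.05. Oaz1 stays between 0.24 and 0.36 and Odc1 between -0.16 and -0.10, filled throughout, Azin1 is open in 4 settings, and Srm and Sat1 are filled in the 3 adjusted fits and open in the rest.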

How the data were processed

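Each library's deposited table lists raw counts of reads for gene symbols, as whole numbers. The submitters' processing notes name HTSeq, STAR 2.5.3, DESeq2, cutadapt and bcl2fastq 2.17.1.14, with build mm10, and the annotation and strand setting are not given in the sources used here. The 5 HTSeq summary classes were left out (4.76% to 5.46% of reads without a feature, 3.17% to 3.30% ambiguous, 11.0% to 11.7% not unique). The share that was not unique was 11.4% to 11.7% in controls and 11.0% to 11.1% with H2O2, and the groups did not overlap. Genes that passed filterByExpr were tested with edgeR 4.0.16 (quasi-likelihood, TMM factors, treatment as the only term, R 4.3.3), with Benjamini-Hochberg adjustment over 12924 genes, a threshold of 0.05 and SE from the fit. Simulated data with known changes were used to test the scripts.

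The 9 genes, the lists and the tests were chosen with earlier results of these data known. Named neighbours are up to 3 called genes with the smallest p of each list, or its most abundant tested member where none was called, and members below the filter are named as not tested. Arg1, Mri1, Dhps, Dohh, Amd2, Atp13a3 and Max were named outside this rule, after their values were seen. The genes most like Oaz1 and Odc1 are the 3 with the highest r, leaving out pseudogenes and symbols with Gm or Rik. Azin2 and Adgre1 were matched by older symbols. Alternatives were DESeq2 1.42.0 and limma-voom (limma 3.58.1), other scaling factors, no filter, a filter of 1 CPM in all libraries, the replicate block, each library left out, and a loess offset (span 0.3) on length and GC content of the longest protein-coding GENCODE M21 transcript, found for 94.6% of tested genes. That transcript class was chosen after the data were seen. Not every gene of the marker lists is reported here.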

Additional observations from a re-analysis of the deposited data

How the results depend on the processing

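Over 17 alternatives Oaz1 kept its call and direction (0.24 to 0.36), as did Odc1 (-0.16 to -0.10, edgeR, limma-voom or DESeq2 adjusted p 1.6e-04 to 0.043). The count of the 9 genes called higher was 1 in each alternative. The count called lower was 2, but 1 with upper-quartile factors, 4 with the length and GC offset, 4 with that offset and the replicate block, and 4 with the offset on the longest transcript of any class, chosen after the data were seen, because Srm and Sat1 were added. It ran from 1 to 2 when 1 library was left out, with Azin1 lost without control replicate 2 or 3 or H2O2 replicate 1 (adjusted p over all alternatives 7.8e-04 to 0.19). The size for Oaz1 turns on which transcript gives its length: 0.24 with its longest coding transcript and 0.34 with the longest of any class, one that keeps an intron. With 1 library left out, Smox ran from -0.035 (without H2O2 replicate 3, where its sign changed) to 0.064, and Mtap from -0.040 to 0.0053, changing sign without control replicate 1 (0.0053) or H2O2 replicate 1 (0.0016), uncalled throughout. Genes lower with H2O2 over the transcriptome ran from 926 (without H2O2 replicate 1) to 1313 with 1 library left out, against 1395 as reported.

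Replicate numbers do not pair the libraries by the labels. Deviations of same-numbered libraries from their group means correlated at -0.026, 0.0022 and 0.030, and not every library correlated best with its own number. With the replicate block the 9 genes again gave 1 higher and 2 lower, with Oaz1 at 0.34, Odc1 at -0.13 and Azin1 at -0.099. With 368 to 512 reads per library, Smox had the widest interval of the 9 genes.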
